A study of Mus musculus with 89 samples.

Results

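The 30 genes described here are listed targets of the transcription factor p53, taken from the deposited RNA-seq count table of mouse embryonic stem cells by their gene symbols. All 30 were found among the 26276 rows that carry a symbol. They were fixed as a list of names, not by a rule on measured values, but earlier results of these data were known. The list was sorted into genes of cell cycle arrest and mitosis (7), cell death (11), repair and stress metabolism (6), feedback on p53 and restraint of growth signals (4) and 2 others. The series followed depletion of the histone variant H2A.Z.1 with several assays in 89 samples, of which the 6 RNA-seq libraries are used here and 83 are not analysed here. They are dTAG replicates 1, 2 and 3 and control replicates 1, 2 and 3. Cells of both groups are of the V6.5 line, carry the H2afz-FKBP-V genotype (H2afz encodes H2A.Z.1, and the tag lets the dTAG molecule direct the protein to the proteasome) and were grown in 2i + LIF, a medium with inhibitors of MEK and GSK3 and the cytokine LIF that holds stem cells in the naive state. The RNA-seq labels give no dose or duration of dTAG, do not say what the controls received, and do not say whether the libraries came from separate cultures or clones. The p-values below therefore measure the spread between these libraries, which may be technical.

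In unstressed cells p53 is kept low because its own target Mdm2 marks it for destruction. DNA damage and other stresses free p53, which then binds paired half-sites near its targets and raises their transcription. The targets halt the cell cycle (Cdkn1a), trigger death through mitochondria or surface receptors (Bax, Bbc3, Fas), assist repair (Polk, Rrm2b) and restrain p53 itself (Mdm2, Ccng1). H2A.Z is a variant of histone H2A found in nucleosomes beside transcription start sites, and the comparison asks how far the RNA of these targets moved when H2A.Z.1 was depleted.

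The libraries were unequal, and this touches every value below. Named genes held 12907095, 2131648 and 1812405 counts in dTAG replicates 1, 2 and 3, against 14091745 to 15652795 in the controls. Levels are given as CPM, counts scaled to 1e+06 counts in named genes. Olfactory and vomeronasal receptor genes, known mainly from sensory neurons, were detected in 340, 1039 and 1411 of 1455 rows (23.4%, 71.4% and 97.0%) in dTAG replicates 1, 2 and 3, against 158 to 262 rows in the controls. The summed level of 9 stem cell markers, all detected in all 6 libraries, was 2840, 1688 and 493 CPM in the dTAG libraries, against 2616 to 2754 CPM in the controls. That of 8 fibroblast markers was 26.6, 138 and 441 CPM in the dTAG libraries, against 24.1 to 35.4 CPM in the controls. None of the 8 was at 0 in dTAG replicates 2 and 3, and 2 or 3 of them, Col3a1 always among them, were at 0 in each other library. Blood, neuron and epithelium lists summed to 42.2, 58.2 and 351 CPM in dTAG replicate 2 and 125, 225 and 170 CPM in dTAG replicate 3. The controls had at most 15.9, 23.8 and 442 CPM. The epithelium list went both ways in dTAG replicate 3. Krt5 and Krt14 rose to 38.1 and 15.4 CPM, against at most 0.497 and 0.993 CPM in a control. Cdh1 and Epcam, abundant in the controls (at least 305 and 81.4 CPM), fell to 61.8 and 55.2 CPM. Mitochondrial rRNA took 6.94%, 4.94% and 0.165% of named counts in the dTAG libraries, against 6.84% to 7.13% in the controls, and ribosomal protein genes took 4.06%, 2.10% and 0.210%, against 3.79% to 3.91%. dTAG replicate 1 was nearer to the controls than the other dTAG libraries in each of these measures, so each result is given for that library alone and for all 6 libraries. A dTAG library set apart for its likeness to the controls can show smaller differences from them. This limits what a lack of calls in that library can show. Whether the receptor counts and the low depth shape the values of dTAG replicates 2 and 3 was not tested.

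The half-site to which p53 binds was looked for in RefSeq promoter windows of the GRCm38.p6 build, which reach from 250 bases before a transcript start to 50 bases after it. Windows were held for 24 of the 30 genes, 35 windows in all, and 6 genes (Pmaip1, Tnfrsf10b, Perp, Trp53inp1, Rrm2b and Zmat3) had none. A match to the published p53 half-site consensus, which reads the same on both strands, lay in 11 of the 35 windows (31.4%), those of 10 genes, against 8.36% of all 32851 windows. A pair of half-sites at most 13 bases apart lay in 1 of the 35 windows and in 0.0731% of all windows. That window belongs to an upstream start of Cdkn1a, where the half-sites begin 73 and 51 bases before the start and are 12 bases apart. The letters that directly follow the second of them come close to the consensus without matching it in full, so they were not marked. Which of these p53 binds was not tested. The other genes with a half-site were Mdm2, Ccng1, Aen, Bax, Ckap2, Ei24, Sesn1, Polk and Gtse1. The windows below show the 2 full matches of Cdkn1a and single half-sites of a feedback gene pair (Mdm2, Ccng1) and of a death gene pair (Aen, Bax). The CpG-rich window of Trp73, the gene with the largest fitted difference over 6 libraries, is also shown and holds no match. Capitals mark the half-sites, and each is printed in the direction of transcription.
Cdkn1a, chr17:29090729-29091028, plus strand: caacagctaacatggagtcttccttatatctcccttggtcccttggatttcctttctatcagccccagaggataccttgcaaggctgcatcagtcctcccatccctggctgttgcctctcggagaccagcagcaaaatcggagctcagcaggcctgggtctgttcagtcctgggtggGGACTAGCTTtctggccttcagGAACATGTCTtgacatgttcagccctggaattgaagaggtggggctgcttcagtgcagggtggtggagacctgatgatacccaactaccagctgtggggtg
Mdm2, chr10:117710709-117711008, minus strand: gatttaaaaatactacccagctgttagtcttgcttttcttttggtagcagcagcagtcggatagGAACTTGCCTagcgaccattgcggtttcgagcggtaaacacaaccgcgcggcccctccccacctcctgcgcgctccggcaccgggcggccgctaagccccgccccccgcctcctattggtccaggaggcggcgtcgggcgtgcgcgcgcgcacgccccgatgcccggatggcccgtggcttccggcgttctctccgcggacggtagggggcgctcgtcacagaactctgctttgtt
Ccng1, chr11:40755237-40755536, minus strand: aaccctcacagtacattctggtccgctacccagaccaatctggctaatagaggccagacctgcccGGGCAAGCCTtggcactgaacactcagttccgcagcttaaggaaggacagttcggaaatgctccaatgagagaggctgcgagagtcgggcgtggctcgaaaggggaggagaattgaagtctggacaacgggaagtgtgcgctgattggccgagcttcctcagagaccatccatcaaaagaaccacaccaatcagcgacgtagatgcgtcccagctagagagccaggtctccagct
Aen, chr7:78895808-78896107, plus strand: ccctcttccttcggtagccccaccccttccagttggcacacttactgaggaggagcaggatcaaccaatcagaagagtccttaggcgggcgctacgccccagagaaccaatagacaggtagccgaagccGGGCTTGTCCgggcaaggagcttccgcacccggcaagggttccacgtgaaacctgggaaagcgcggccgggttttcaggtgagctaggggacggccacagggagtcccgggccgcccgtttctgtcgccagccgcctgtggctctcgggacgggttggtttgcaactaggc
Bax, chr7:45466849-45467148, minus strand: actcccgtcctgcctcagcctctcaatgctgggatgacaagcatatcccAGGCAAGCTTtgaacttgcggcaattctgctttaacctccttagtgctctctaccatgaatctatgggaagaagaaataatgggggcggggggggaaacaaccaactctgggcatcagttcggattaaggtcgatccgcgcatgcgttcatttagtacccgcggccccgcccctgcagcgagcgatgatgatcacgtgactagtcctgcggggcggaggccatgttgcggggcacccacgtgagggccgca
Trp73, chr4:154139826-154140125, minus strand: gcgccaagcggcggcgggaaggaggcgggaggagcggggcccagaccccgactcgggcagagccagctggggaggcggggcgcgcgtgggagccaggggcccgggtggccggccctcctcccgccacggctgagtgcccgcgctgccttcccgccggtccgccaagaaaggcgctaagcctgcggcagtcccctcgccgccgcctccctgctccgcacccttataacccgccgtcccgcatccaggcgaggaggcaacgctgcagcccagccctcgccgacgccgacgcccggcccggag
A match to the consensus is a description of these letters and does not show binding. The windows of the p53 targets were rich in CpG, with a median of 22 CpG against 18 in the windows of all tested genes. They ranged from 1 CpG in a Gdf15 window to 39 in windows of Trp73 and Bbc3. The 10 genes with a half-site had control means of 23.3 to 183 CPM. Their fitted log2 fold changes had a median of -0.08 in dTAG replicate 1 and -0.92 over the 6 libraries. For the 14 genes with a window and no half-site the medians were -0.04 and 0.13, and their control means had a median of 14.2 CPM, against 63.4 CPM for the 10 genes, with no scaling to gene length.

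Most targets varied little between the controls. All 30 had a count in every library, except Ano3 in control replicate 1. The median coefficient of variation between the 3 controls was 10.2% for the 30 genes, against 21.6% for all genes tested. By control level it was 35.5% for the 8 targets under 10 CPM, 10.6% for the 11 from 10 to under 50 CPM and 6.74% for the 11 at 50 CPM or more, against 45.3%, 15.1% and 8.06% for all genes of those levels. It was 0.518% for Ckap2, 2.04% for Ei24 and 4.23% for Trp53inp1, and at the other end 50.7% for Zfp365, 59.6% for Fas and 102% for Ano3. Together the 30 genes took 1503, 1396 and 1308 CPM in dTAG replicates 1, 2 and 3, against 1462 ± 18.5 CPM in the controls (SD, n = 3). Levels are not compared between genes, since gene lengths were not used.

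In dTAG replicate 1, no p53 target passed the test against the 3 controls. In bulk samples, fewer cells that express a gene and less of its RNA per cell cannot be told apart. By edgeR's quasi-likelihood test with Benjamini-Hochberg adjustment over 18143 genes, 0 of the 30 were called (adjusted p from 0.973 to 0.999), and 0 had an unadjusted p under 0.05. DESeq2 also called 0. Among all genes tested, 0.0882% were called (16, of which 11 were higher and 5 lower). The median log2 fold change of the 30 genes was -0.03, with 13 above 0 and 17 below, against a median of -0.02 for all genes tested. For 21 of the 30, all with control means of at least 13.5 CPM, the 95% interval lay inside a 2-fold change in either direction. The lone dTAG library is assumed here to vary like the controls, so these intervals hold only under that assumption. Ranked without a model, dTAG replicate 1 lay above all 3 controls in CPM for 12 of the 30 genes and below all 3 for 4, against 34.2% and 16.9% of the 18116 genes tested over 6 libraries. Both counts are near what those shares of 30 genes would give.

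Over all 6 libraries, no target passed the test in edgeR either. edgeR called 0 of the 30, and called 0% of 18116 genes, with 4202 genes and 2 targets (Trp73 and Fas) at an unadjusted p under 0.05. All 30 genes passed the filter on low counts, but Fas and Ano3 would not have passed on the controls alone. Of all genes, 14303 passed on the controls alone, against the 18116 tested, so values for all genes can include genes that entered through the dTAG libraries. DESeq2 called the same 2 genes, Trp73 and Fas, as higher, against 17.7% of all genes in either direction and 17.6% as higher, and edgeR without the filter called Trp73 alone, against 5.45%. The median log2 fold change of the 30 genes was -0.61, with 20 below 0, against 0.16 for all genes tested, a difference of -0.77. Scaled by library totals alone, the medians were 0.10 and 1.11, a difference of -1.01, so the sign of the targets' median depends on the scaling. These fits scale dTAG replicate 3 strongly (TMM factor 2.31, against 0.742 to 0.805 in the controls). A gene can therefore have a higher CPM in all 3 dTAG libraries and a fitted log2 fold change below 0, as Sesn1 does. Library by library, dTAG replicate 2 lay above all controls for 14 of the 30 genes (63.4% of all genes tested) and below all for 12 (22.4%). In dTAG replicate 3 the counts were 16 above (72.3% of all genes) and 13 below (22.4%, as in replicate 2). All 3 dTAG libraries lay above all 3 controls for 6 of the 30 (Plk3, Fas, Perp, Trp73, Rrm2b and Sesn1), against 23.9% of all genes, and below them for 1, Ckap2, against 3.22%.

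**Figure D1:**
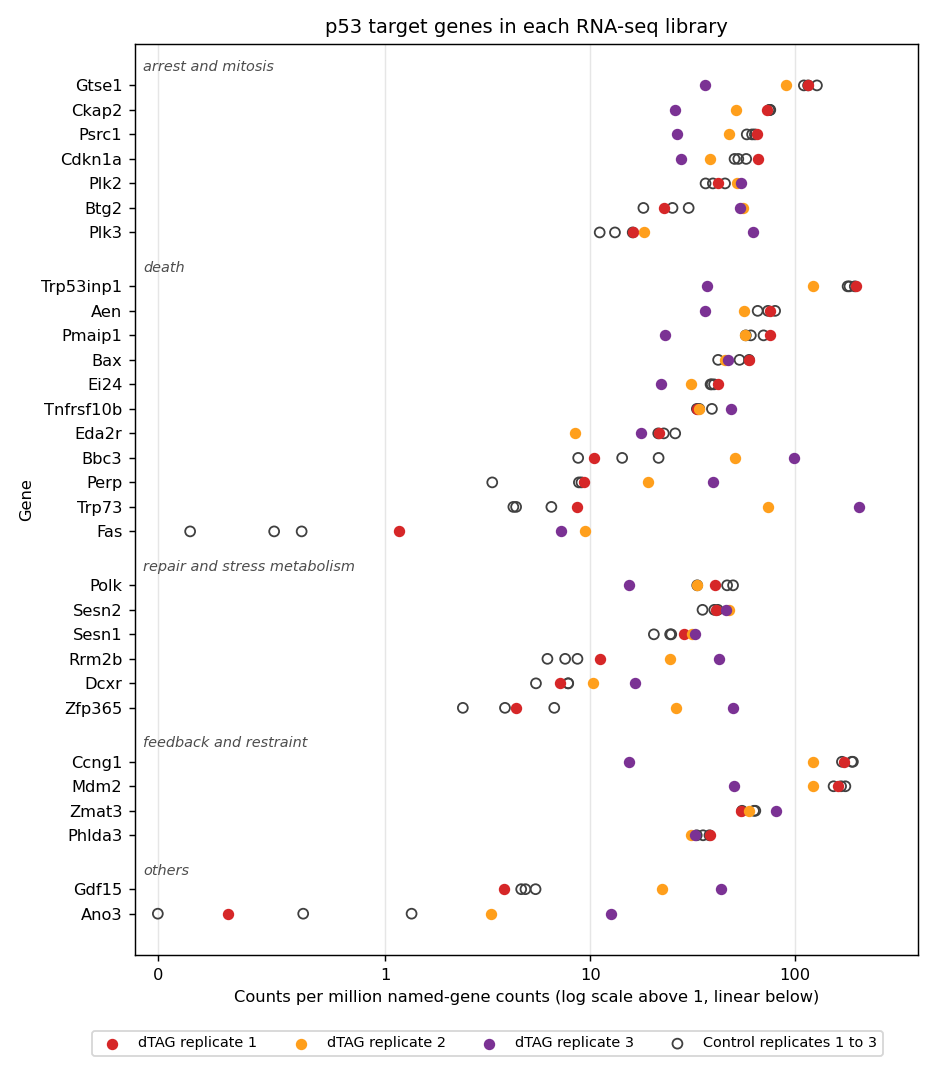
Level of each p53 target gene in each RNA-seq library, in CPM on a log scale that is linear below 1. Filled points are the 3 dTAG libraries and open points the 3 controls; dTAG replicate 1 lies within or close to the controls for most genes, while dTAG replicates 2 and 3 lie left of them for the abundant genes such as Ccng1 and Trp53inp1 and right of them for scarce genes such as Trp73 and Zfp365.

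Of the genes of arrest and mitosis, Cdkn1a encodes p21, an inhibitor of cyclin-dependent kinases and the best known target of p53. It had 65.9, 38.5 and 27.6 CPM in the dTAG libraries, against 50.6, 57.7 and 52.8 CPM in the controls (all values are in replicate order). dTAG replicate 1 was above every control and the other dTAG libraries were below every control. The log2 fold change was 0.21 (SE 0.19, 95% interval -0.18 to 0.59) for dTAG replicate 1 and -0.73 (SE 0.65, 95% interval -2.22 to 0.77) over 6 libraries, with an edgeR adjusted p of 0.985 and 0.474. Gtse1, which moves p53 out of the nucleus in G2 phase, had 116, 90.1 and 36.4 CPM in the dTAG libraries, against 128, 110.3 and 116 CPM in the controls. Ckap2, a spindle protein, had 73.3, 51.6 and 25.9 CPM in the dTAG libraries, against 74.9, 75.1 and 75.6 CPM in the controls. Its controls averaged 75.2 ± 0.390 CPM (SD, n = 3) and all 3 dTAG libraries were below them, with a log2 fold change of -0.12 (SE 0.17, 95% interval -0.47 to 0.22) in dTAG replicate 1. Psrc1, a microtubule regulator, had 65.2, 47.4 and 26.5 CPM in the dTAG libraries, against 58.1, 63.6 and 61.7 CPM in the controls. These 4 genes shared an order, with dTAG replicate 3 lowest, dTAG replicate 2 next and dTAG replicate 1 at or near the controls. The order is not particular to them. All 4 had control means of 50 CPM or more. At that level 71.7% and 78.9% of all genes tested were below every control in dTAG replicates 2 and 3.

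The remaining 3 genes of this group had a higher CPM in dTAG replicates 2 and 3 than in any control, but their fitted log2 fold changes in those 2 libraries alone were not above 0 (Plk2 -0.94, Btg2 -0.16, Plk3 -0.03). Plk2, a polo-like kinase of the stress response, had 42.2, 52.1 and 54.6 CPM in the dTAG libraries, against 45.5, 36.5 and 39.7 CPM in the controls. Its relative Plk3 had 16.2, 18.3 and 62.3 CPM in the dTAG libraries, against 13.2, 11.1 and 16.1 CPM in the controls, and all 3 dTAG libraries were above all controls, replicate 1 by less than the SD of the controls. Btg2, which restrains proliferation, had 22.9, 55.4 and 54.1 CPM in the dTAG libraries, against 25.2, 30.2 and 18.2 CPM in the controls. None of the 7 genes was called in either fit. Their median log2 fold change was -0.02 in dTAG replicate 1 and -0.73 over 6 libraries. Plk2 was at -0.41 (SE 0.40), Btg2 at 0.01 (SE 0.38) and Plk3 at 0.24 (SE 0.37) over 6 libraries, and the signs of Btg2 and Plk3 turn when single libraries are left out. As a sum, the 7 genes stood at 401, 353 and 287 CPM in the dTAG libraries, against 387 ± 7.94 CPM in the controls (SD, n = 3).

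The death genes had differences in both directions, none of which passed the test in edgeR. Bax, which permeabilizes the outer mitochondrial membrane, had 59.6, 45.5 and 46.9 CPM in the dTAG libraries, against 59.6, 53.5 and 42.1 CPM in the controls, and all 3 dTAG libraries lay within the range of the controls. Bbc3, the BH3-only activator called PUMA, had 10.5, 51.1 and 98.8 CPM in the dTAG libraries, against 21.6, 14.3 and 8.73 CPM in the controls. Its 3 controls differed among themselves by more than for most targets, and dTAG replicate 1 lay among them. The log2 fold change of Bbc3 was -0.58 (SE 0.40, 95% interval -1.39 to 0.23) in dTAG replicate 1, the smallest unadjusted p of the 30 genes in that comparison (0.156; edgeR adjusted p = 0.973), and 0.75 (SE 0.52, 95% interval -0.46 to 1.96) over 6 libraries. Pmaip1, a second BH3-only protein known as NOXA, had 75.3, 56.8 and 23.2 CPM in the dTAG libraries, against 60.8, 57.4 and 70.1 CPM in the controls. It was higher in dTAG replicate 1 than in any control, with a log2 fold change of 0.18 (SE 0.18, 95% interval -0.18 to 0.54). Ei24, a protein of the endoplasmic reticulum, had 42.2, 31.0 and 22.1 CPM in the dTAG libraries, against 40.2, 38.7 and 39.2 CPM in the controls, with tight controls between which no dTAG library fell. Trp53inp1, a nuclear cofactor of p53 that also takes part in autophagy, had 198, 123 and 37.0 CPM in the dTAG libraries, against 196, 180.4 and 184 CPM in the controls. Its interval for dTAG replicate 1 was the narrowest of the 30 genes, with a log2 fold change of 0.00 (SE 0.12, 95% interval -0.24 to 0.25). Aen, an exonuclease that digests DNA in apoptosis, had 75.4, 56.3 and 36.4 CPM in the dTAG libraries, against 65.6, 79.9 and 73.7 CPM in the controls. Perp, a membrane protein of desmosomes and of apoptosis, had 9.30, 19.2 and 39.7 CPM in the dTAG libraries, against 9.06, 3.32 and 8.80 CPM in the controls, so that all 3 dTAG libraries exceeded the controls. For Perp the margin in dTAG replicate 1 was within the spread of the controls (log2 fold change 0.33 (SE 0.49, 95% interval -0.66 to 1.31)).

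The death group holds 3 surface receptors. Fas, the receptor of Fas ligand, had few counts, with 15, 20 and 13 counts in the dTAG libraries, against 9, 8 and 2 counts in the controls. That is 1.16, 9.38 and 7.17 CPM in the dTAG libraries, against 0.632, 0.511 and 0.142 CPM in the controls, and all 3 dTAG libraries were above all controls. Fas had an edgeR adjusted p of 0.16 over 6 libraries at a log2 fold change of 2.81 (SE 1.06, 95% interval 0.37 to 5.26), and DESeq2 gave an adjusted p of 0.0311. Fas passed the filter on low counts only through the dTAG libraries, where it is high, so these values are a description and no support for a difference. In dTAG replicate 1 its log2 fold change was 1.34 (SE 1.89, 95% interval -2.47 to 5.16), an interval too wide to place it. Tnfrsf10b, the mouse receptor of the ligand TRAIL, had 33.1, 33.8 and 48.6 CPM in the dTAG libraries, against 39.2, 34.1 and 33.1 CPM in the controls. Eda2r, a receptor of ectodysplasin on the X chromosome, had 21.7, 8.44 and 17.7 CPM in the dTAG libraries, against 26.0, 21.5 and 22.9 CPM in the controls. dTAG replicate 2 was the lowest of the 6 libraries, and dTAG replicate 3 was also below every control.

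Trp73 encodes p73, a relative of p53 that binds the same sites, and it had the largest fitted difference of the 30 genes over 6 libraries. It had 8.60, 73.7 and 206 CPM in the dTAG libraries, against 4.21, 4.34 and 6.46 CPM in the controls, or 111, 157 and 373 counts in the dTAG libraries, against 60, 68 and 91 counts in the controls. All 3 dTAG libraries were above all controls, and the log2 fold change was 3.01 (SE 0.71, 95% interval 1.37 to 4.65) with an edgeR adjusted p of 0.0797. DESeq2 gave an adjusted p of 0.00169 and edgeR without the filter on low counts 0.028. In dTAG replicate 1 alone the log2 fold change was 0.69 (SE 0.51, 95% interval -0.34 to 1.73) (edgeR adjusted p = 0.973). Trp63 encodes the third member of the family. It had 0.930, 7.98 and 30.3 CPM in the dTAG libraries, against 1.12, 1.02 and 0.639 CPM in the controls. Its edgeR adjusted p was 0.171 over 6 libraries, and its log2 fold change was -0.08 (SE 1.64) in dTAG replicate 1. With 9 counts in control replicate 3, under the filter's minimum count, Trp63 would not have passed on the controls alone. It is high in dTAG replicates 2 and 3 and entered through the dTAG libraries. Its values over 6 libraries are therefore a description and no support for a difference. Of the 11 death genes, 0 were called in either fit, and their median log2 fold change was 0.02 in dTAG replicate 1 and -0.61 over 6 libraries. Their sum was 535, 508 and 583 CPM in the dTAG libraries, against 499.9 ± 19.6 CPM in the controls (SD, n = 3), and Trp73 alone made up 206 CPM of the sum in dTAG replicate 3.

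In the group of repair and stress metabolism, Polk, a DNA polymerase that copies past damaged bases, had 40.7, 33.3 and 15.4 CPM in the dTAG libraries, against 33.3, 49.8 and 46.6 CPM in the controls. It was the lone member of its group with dTAG replicate 3 below the controls. Rrm2b, a ribonucleotide reductase subunit that supplies nucleotides for repair, had 11.2, 24.4 and 42.5 CPM in the dTAG libraries, against 6.18, 7.54 and 8.66 CPM in the controls. All 3 dTAG libraries were above all controls, and the log2 fold change was 0.49 (SE 0.43, 95% interval -0.38 to 1.37) in dTAG replicate 1 and 0.83 (SE 0.39, 95% interval -0.08 to 1.73) over 6 libraries (edgeR adjusted p = 0.253). The sestrins, which dampen mTORC1 signalling under stress, differed in one respect. Sesn1 had 28.7, 31.4 and 32.6 CPM in the dTAG libraries, against 24.9, 24.5 and 20.4 CPM in the controls, with all dTAG libraries above all controls, whereas Sesn2 had 41.3, 47.4 and 45.8 CPM in the dTAG libraries, against 35.3, 40.3 and 41.9 CPM in the controls, with dTAG replicate 1 inside the controls. Their log2 fold changes were 0.22 (SE 0.27) and -0.01 (SE 0.22) in dTAG replicate 1, and -0.26 (SE 0.40) and -0.47 (SE 0.43) over 6 libraries. The difference between the 2 genes was not tested.

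Zfp365, a zinc finger protein that protects telomeres and fragile sites, had 4.34, 26.3 and 49.7 CPM in the dTAG libraries, against 2.39, 3.83 and 6.67 CPM in the controls. Its dTAG replicate 1 value lay among the controls, and the difference over 6 libraries, 1.49 (SE 0.68, 95% interval -0.07 to 3.05), went with high values in dTAG replicates 2 and 3 (edgeR adjusted p = 0.235). Dcxr, a carbonyl reductase of sugar metabolism, had 7.13, 10.3 and 16.6 CPM in the dTAG libraries, against 7.79, 5.43 and 7.81 CPM in the controls. No gene of this group was called in either fit. The median log2 fold change was -0.03 in dTAG replicate 1 and -0.21 over 6 libraries, with 4 of the 6 genes below 0 in each. By CPM, which the fit rescales, the sum of the 6 genes was 133, 173 and 202 CPM in the dTAG libraries, against 124 ± 12.7 CPM in the controls (SD, n = 3).

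Mdm2 encodes the ubiquitin ligase that destroys p53, and its promoter window carried the single half-site shown above. It had 163, 123 and 50.2 CPM in the dTAG libraries, against 176, 154 and 168 CPM in the controls, with dTAG replicate 1 inside the controls. Ccng1, a cyclin that recruits a phosphatase to Mdm2, had 173, 122 and 15.4 CPM in the dTAG libraries, against 169, 189 and 191 CPM in the controls. dTAG replicate 3 held 28 counts of Ccng1, and its CPM was 0.0843 times the control mean, the lowest ratio among the 30 genes. The log2 fold changes in dTAG replicate 1 were -0.11 (SE 0.13, 95% interval -0.37 to 0.15) for Mdm2 and -0.17 (SE 0.13, 95% interval -0.43 to 0.10) for Ccng1. Zmat3, an RNA-binding zinc finger protein, had 54.2, 59.6 and 80.6 CPM in the dTAG libraries, against 63.0, 55.1 and 63.9 CPM in the controls, so that dTAG replicate 1 was the lowest and dTAG replicate 3 the highest of the 6 libraries. Phlda3, which competes with the kinase Akt for membrane lipids, had 38.3, 31.0 and 32.6 CPM in the dTAG libraries, against 35.5, 33.1 and 38.2 CPM in the controls, which is 1.08, 0.870 and 0.914 times the control mean in the dTAG libraries. None of the 4 was called in either fit, their median log2 fold change was -0.14 in dTAG replicate 1 and -0.82 over 6 libraries, and Phlda3 was the one with a value above 0 in dTAG replicate 1 (0.02). Their sum was 429, 336 and 179 CPM in the dTAG libraries, against 445 ± 15.0 CPM in the controls (SD, n = 3).

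Gdf15, a secreted stress cytokine, had 3.80, 22.5 and 43.6 CPM in the dTAG libraries, against 5.41, 4.60 and 4.83 CPM in the controls. dTAG replicate 1 was below every control and the other dTAG libraries were above, and the log2 fold change was -0.46 (SE 0.62, 95% interval -1.71 to 0.78) in dTAG replicate 1 and 1.10 (SE 0.60, 95% interval -0.27 to 2.48) over 6 libraries. Ano3, a membrane protein of the anoctamin family, had 4, 7 and 23 counts in the dTAG libraries, against 0, 21 and 9 counts in the controls. That is 0.310, 3.28 and 12.7 CPM in the dTAG libraries, against 0, 1.34 and 0.639 CPM in the controls, with dTAG replicates 2 and 3 above every control and dTAG replicate 1 among them. The 0 in control replicate 1 is compatible with as many as 3 counts, or 0.211 CPM, by counting error alone. Neither gene was called in either fit.

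**Figure D2:**
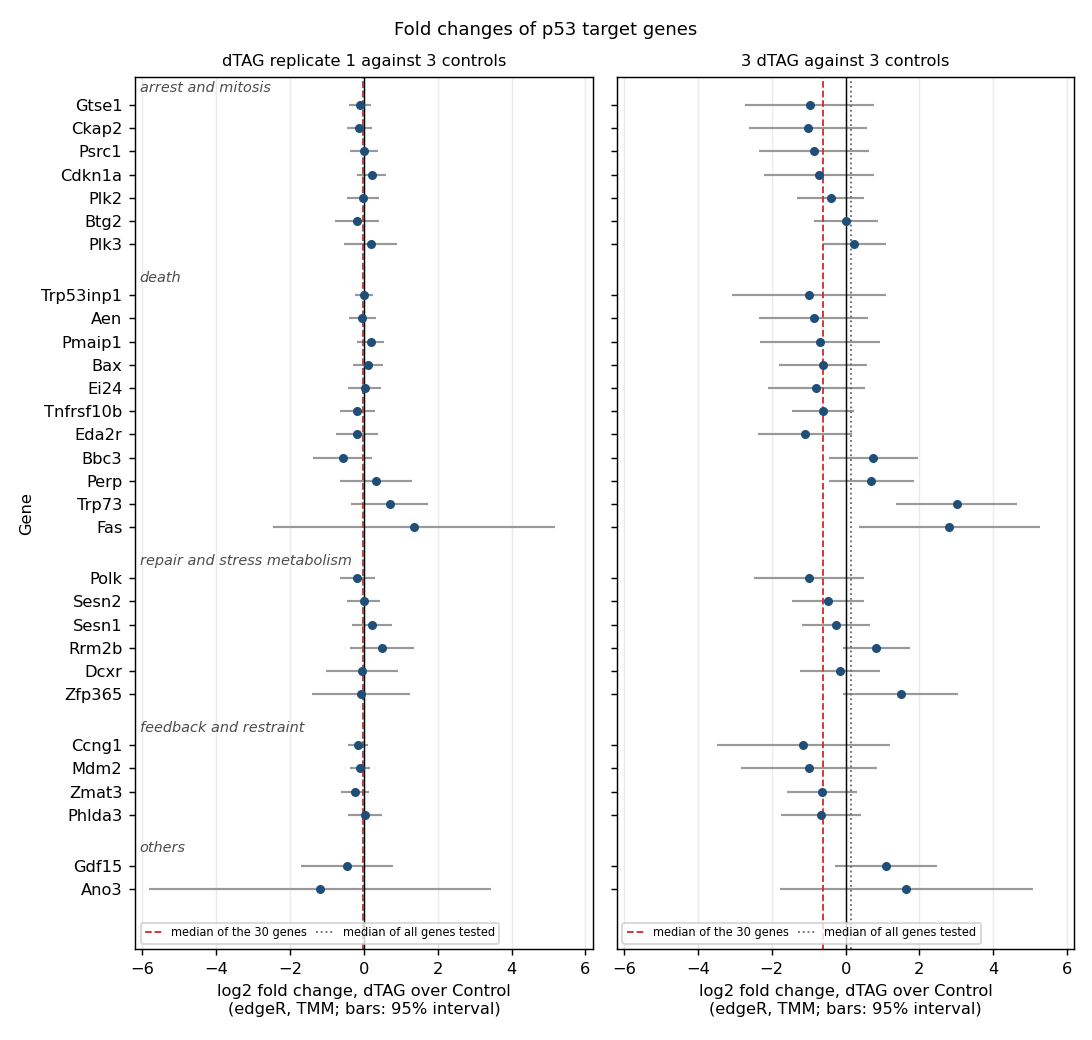
Fitted log2 fold change of dTAG over Control for each p53 target gene, with its 95% interval, from dTAG replicate 1 against 3 controls (left) and from all 6 libraries (right). The intervals of the left panel cover 0 for all 30 genes and are narrow for abundant genes. In the right panel the intervals of Trp73 and Fas lie above 0. Fas passed the filter on low counts only through the dTAG libraries, where it is high, so its interval is no support for a difference. The median of the 30 genes in the right panel (-0.61) lies below that of all genes tested (0.16).

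What the targets did in dTAG replicates 2 and 3 went with how abundant they were in the controls, and the medians of all tested genes also ran from above 0 at low control levels to below 0 at high ones. Of the 8 targets under 10 CPM in the controls, 8 were above all controls in both of these libraries, as were 87.5% (dTAG replicate 2) and 94.6% (dTAG replicate 3) of 9240 genes of that level. Their median log2 ratio of CPM + 1 to the control mean was 0.19, 1.79 and 2.71 in dTAG replicates 1, 2 and 3, against 0.16, 1.84 and 3.34 for all genes of that level. Of the 11 targets at 50 CPM or more, 9 were below all controls in each of these libraries, as were 71.7% (dTAG replicate 2) and 78.9% (dTAG replicate 3) of 3120 genes. Their median log2 ratios were 0.04, -0.38 and -1.40, against 0.04, -0.37 and -1.38 for all genes of that level. For the 11 targets between these levels the medians were 0.06, 0.27 and 0.42, against 0.02, 0.23 and 0.79. Of the 8 targets under 10 CPM, Fas and Ano3 would not have passed the filter on low counts on the controls alone. Of all genes, 14303 passed on the controls alone, against the 18116 tested. The shares and medians under 10 CPM can therefore include genes that entered through the dTAG libraries, where they are high. The classes use the control libraries that the ratios also use, and no test was made of them. In 22 of the 30 genes (73.3%) dTAG replicate 2 lay between the control mean and dTAG replicate 3, as it did in 83.9% of all genes tested. The exceptions were Bax, Btg2, Fas, Tnfrsf10b, Eda2r, Sesn2, Zmat3 and Phlda3.

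**Figure D3:**
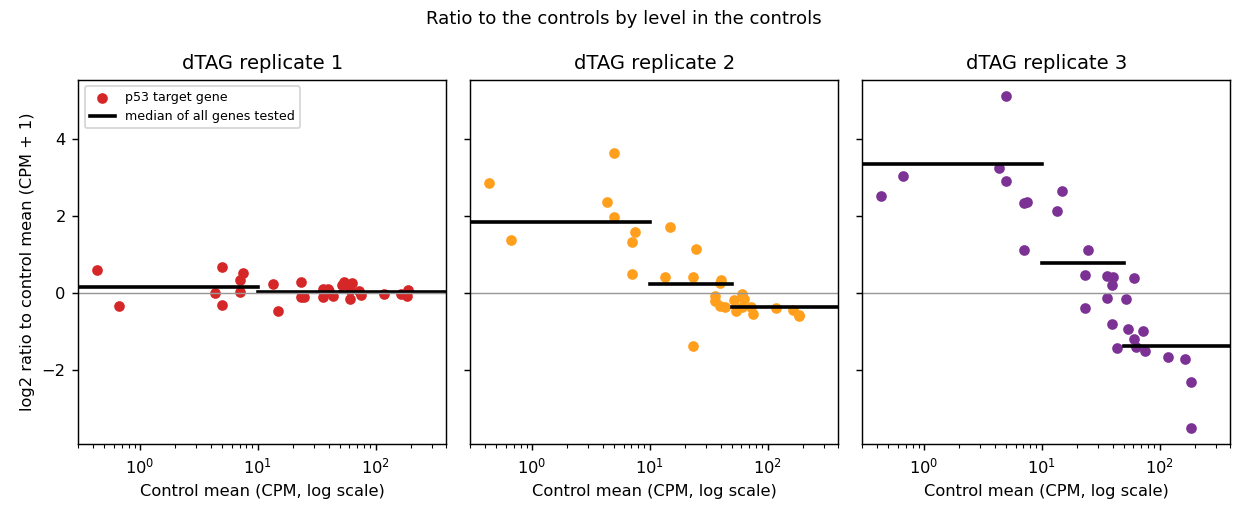
Log2 ratio of CPM + 1 in each dTAG library to the control mean, against the control mean in CPM on a log scale, for the p53 target genes. Black lines are the medians of all genes tested in the classes under 10 CPM, 10 to under 50 CPM and 50 CPM or more; the points of dTAG replicate 1 lie near 0, and those of replicates 2 and 3 follow the lines from above 0 at the left to below 0 at the right, with Trp73 the highest point.

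Leaving out dTAG replicate 1 changed the calls most. edgeR then called 16 of the 30 targets, against 59.8% of 22093 genes. Of the targets 4 were higher and 12 lower, against 40.0% higher and 19.8% lower among all genes. The median log2 fold change of the targets was -1.19, against 0.68 for all genes. On the controls alone, 28 of the 30 targets and 14303 genes passed the filter on low counts, against the 22093 genes tested here. The shares and the median of all genes can therefore include genes that entered through the dTAG libraries, where they are high. Targets and all genes are thus not compared on equal terms, and no test was made of the differences between them. Under 10 CPM in the controls were 8 of the 30 targets, against 9240 of 18116 genes tested over 6 libraries. The higher genes were Fas, Trp73, Zfp365 and Gdf15. Fas passed the filter only through the dTAG libraries, where it is high, so its call is no support for a difference. The lower genes were Cdkn1a, Gtse1, Ckap2, Psrc1, Bax, Pmaip1, Tnfrsf10b, Eda2r, Aen, Ei24, Polk and Phlda3. These calls rest on the 2 shallow dTAG libraries with counts in most receptor genes. Tnfrsf10b was called lower with a CPM in dTAG replicate 3 above every control, and Bax with both CPM values inside the range of the controls.

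Of p53 itself and the genes that act on it, a list chosen with earlier results of these data known, 1 was called. Trp53 had 139, 99.5 and 43.0 CPM in the dTAG libraries, against 133, 139 and 107 CPM in the controls, with a log2 fold change of 0.05 (SE 0.15, 95% interval -0.24 to 0.35) in dTAG replicate 1. Mdm4, the partner of Mdm2 that blocks p53 at its targets, had 126, 98.5 and 29.8 CPM in the dTAG libraries, against 116, 121 and 99.8 CPM in the controls, with a log2 fold change of 0.08 (SE 0.15, 95% interval -0.22 to 0.38). Of 18 upstream genes tested, dTAG replicate 1 had 0 higher and 1 lower, against 0.0276% of 18143 genes called lower. As the list was chosen with earlier results known, this count is a description and no support for an excess of called genes. The lower gene was Brd7, a bromodomain subunit of a SWI/SNF complex that also acts as a p53 cofactor. It was at 252, 284 and 47.5 CPM in the dTAG libraries, against 396, 395 and 402 CPM in the controls. Its log2 fold change was -0.74 (SE 0.11, 95% interval -0.96 to -0.52) in dTAG replicate 1, with an edgeR adjusted p of 6.24e-05, and -1.45 (SE 1.02, 95% interval -3.79 to 0.89) over 6 libraries, with an edgeR adjusted p of 0.411. Ep300, the coactivator p300, came next in dTAG replicate 1, with a log2 fold change of -0.28 (SE 0.13), an unadjusted p of 0.0411 and an edgeR adjusted p of 0.829. Over 6 libraries 0 of the 18 were called. Trp63 (above, with the limit given there) and Chek2, a damage kinase at -0.85 (SE 0.37), had the smallest unadjusted p. By CPM, which the fit rescales, Chek2 had 23.6, 26.7 and 30.3 CPM in the dTAG libraries, against 30.4, 27.5 and 31.7 CPM in the controls. Its dTAG replicate 3 value lay inside the controls. The median log2 fold change of the 18 was -0.11 in dTAG replicate 1 and -0.72 over 6 libraries.

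A further list of 21 p53 targets outside the 30 had 20 tested genes, Casp1 being too low. None was called in either fit, with a median log2 fold change of -0.03 in dTAG replicate 1 and -0.35 over 6 libraries. Tigar, which lowers glycolytic flux, and Gadd45a, a damage-induced growth arrest gene, had the smallest unadjusted p in dTAG replicate 1. Tigar had 53.5, 38.9 and 46.9 CPM in the dTAG libraries, against 26.5, 39.5 and 42.2 CPM in the controls, with a log2 fold change of 0.48 (SE 0.23, 95% interval 0.01 to 0.95) and an edgeR adjusted p of 0.854. Gadd45a had 8.60, 7.51 and 11.0 CPM in the dTAG libraries, against 3.58, 3.71 and 5.25 CPM in the controls, with a log2 fold change of 0.95 (SE 0.54, 95% interval -0.13 to 2.04) and an edgeR adjusted p of 0.939. Over 6 libraries the smallest were those of Tap1, a peptide transporter of antigen presentation, and Ddb2, a sensor of ultraviolet damage. Tap1 had 7.59, 167 and 246 CPM in the dTAG libraries, against 6.81, 9.01 and 4.75 CPM in the controls, with a log2 fold change of 3.22 (SE 0.87, 95% interval 1.22 to 5.21) and an edgeR adjusted p of 0.0875. Ddb2 had 7.05, 15.5 and 34.2 CPM in the dTAG libraries, against 3.86, 5.11 and 4.47 CPM in the controls, with a log2 fold change of 1.04 (SE 0.49, 95% interval -0.09 to 2.16) and an edgeR adjusted p of 0.252.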

How the data were processed

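RNA-seq was analysed for 3 dTAG and 3 control libraries, grouped by sample titles, with the table's columns matched by the same titles. The deposited table gives raw read counts per gene as whole numbers. Per the submitters' processing notes, STAR 2.7.2b, featureCounts, edgeR and limma were used with build mm10. The sources used here give no settings, annotation or use of strand in counting. Rows without a symbol, 903 of 27179, held 2.33%, 6.67% and 14.6% of counts in dTAG replicates 1, 2 and 3 and 2.20% to 2.37% in the controls, and entered neither library sizes nor tests. ERCC spike-ins were added per the labels' protocols, but 0 rows are named ERCC, so a change in total RNA per cell was not measured.

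Differential expression was tested across all genes with edgeR 4.0.16 in R 4.3.3 (glmQLFit, glmQLFTest, two-sided, group alone, TMM, filterByExpr with minimum count 10 and minimum total count 15), with Benjamini-Hochberg adjustment at 0.05. Standard errors come from the fold change and F statistic, and 95% intervals from the t distribution of the test. The same fit was made with the 3 controls and dTAG replicate 1. Earlier results had shown the other dTAG libraries to be shallow and less like the controls. Scripts were tested on simulated counts. Alternatives were RLE scaling, library totals, no filter on low counts, DESeq2 1.42.0, a replicate block and leaving out each library. Every pair of libraries differed beyond sampling noise (chi-square per gene of at least 9.49). Intervals and floors cover counting error only where they rest on counts: 3 counts are 0.232, 1.41 and 1.66 CPM in the dTAG libraries and 0.192 to 0.213 CPM in the controls. The receptor shares in dTAG replicates 1, 2 and 3 have 95% Wilson intervals of 21.3% to 25.6%, 69.0% to 73.7% and 96.0% to 97.7%.

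The members and all lists were chosen with earlier results of these data known. Values in every library are given for the targets with the 3 highest control means and the 2 smallest p in either fit of each role group, and for the rest where short. Col3a1 was named after its values were seen.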

Additional observations from a re-analysis of the deposited data

How the results depend on the processing

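No p53 target was called by edgeR under RLE scaling or library totals, and none under any alternative tried for dTAG replicate 1. Over 6 libraries, edgeR without the filter on low counts called 1398 genes and 1 target, and DESeq2 called 3206 genes and 2 targets. Of these targets, Fas had passed the filter only through the dTAG libraries, where it is high. Leaving out single libraries gave 0 to 13222 genes, 0 to 16 targets and a target median of -1.19 to -0.24, and all calls came without dTAG replicate 1. With library totals the target median was 0.10, and single log2 fold changes turned positive for Plk2 (0.29), Tnfrsf10b (0.11), Sesn1 (0.41), Sesn2 (0.19), Dcxr (0.68) and Zmat3 (0.092). Btg2 was at -0.15 without the filter. Leave-one-out ranges that crossed 0 were -0.37 to 0.19 for Btg2, -0.050 to 0.33 for Plk3 and -0.88 to 0.025 for Sesn1. In dTAG replicate 1, 41 genes were called without the filter, and 20 to 60 when a control was left out. With library totals the target median was 0.052, with Plk2 at 0.058, Aen at 0.045, Sesn2 at 0.075, Zfp365 at 0.015 and Dcxr at 0.025. Without the filter Psrc1 was at -0.0027 and Trp53inp1 at -0.0049. Ranges over left-out controls were -0.35 to 0.025 for Btg2, -0.070 to 0.035 for Plk2, -0.058 to 0.061 for Psrc1, -0.0016 to 0.54 for Perp, -0.14 to 0.052 for Aen, -0.11 to 0.048 for Sesn2, -0.38 to 0.39 for Zfp365, -0.19 to 0.043 for Dcxr and -0.0092 to 0.084 for Phlda3. Without control replicate 2, Ano3 was not tested. Brd7, checked under the same settings after its values were seen, had a log2 fold change of -0.78 to -0.66 in dTAG replicate 1. These values all rest on the same lone dTAG library, so their likeness is no further support. Over 6 libraries Brd7 was called under none of the settings. The cause of these changes was not tested. Of the values of single targets under the alternatives over 6 libraries, 296 kept their sign and side of the threshold, 19 passed the threshold and 15 turned sign. For dTAG replicate 1, 191 kept both and 18 turned sign.

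To look for pairing, each library's deviations of log2 CPM + 1 from its group mean were correlated between groups over 18116 genes. Same-numbered dTAG and control libraries gave 0.05, -0.02 and 0.03. The dTAG libraries differed more from each other (chi-square per gene of 51.9 to 281) than the controls did (9.49 to 24.1). These correlations therefore cannot decide whether the numbers pair the libraries. A fit with the replicate block called 13 genes and 0 targets and put Btg2 at -0.0047. By these deviations dTAG replicates 1, 2 and 3 correlated best with control replicates 1, 3 and 2, at only 0.05, 0.03 and 0.03.

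In dTAG replicate 3 the targets held 13 to 373 counts each, which limits what that library can show.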
